A study of Chlamydomonas reinhardtii with 18 samples.

Results

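The nuclear genes for proteins of the mitochondrial ribosome were examined in the green alga Chlamydomonas reinhardtii, as 72 genes of 17693 in the deposited expression table. They were taken by name, as every gene whose symbol begins with MRPL or MRPS and a number. No expression value entered that rule, but the set was chosen with earlier results of these data known. By symbol, 45 carry a large subunit symbol (MRPL) and 27 a small subunit symbol (MRPS). RNA had been sequenced in 18 libraries, 3 from each of 6 groups. CC-4532 cells served as the wild type (WT). The mutant, tpt10b, shares that background and is labelled as lacking CreTPT10, whose name places it with the triose phosphate translocators of the plastid envelope. TAP, a medium with acetate, was used for both genotypes, at a light level near 30 µmol photons per square metre and second. WT and tpt10b were each sampled in that light at 0 h, and again when 24 h and 48 h had passed in complete darkness. All 6 groups shared the acetate medium. A single mutant line was measured, and no other allele or complemented line was analysed here. Whether the 3 replicates of a group came from separately started cultures is not stated beyond their being called biological, and the p-values measure the spread between these libraries.

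Mitochondrial ribosomes translate the few messages that the mitochondrial genome still encodes, which in this alga are mostly subunits of the respiratory chain. Their proteins are made in the cytosol from nuclear genes and imported, so the nuclear genes, the import machinery and the mitochondrial genes together set the supply of parts. In Chlamydomonas the mitochondrial ribosomal RNAs are encoded as scattered fragments, and the ribosome holds proteins found in this lineage beside those shared with bacteria and with animals. Symbols with low numbers follow the bacterial proteins, higher numbers follow proteins named from mitochondrial ribosomes of mammals or of other lineages, and MRPL113 to MRPL119 and MRPS105 to MRPS107 follow proteins named from the algal ribosome. By this numbering 49 of the 72 are of bacterial type and 23 are not. Chloroplasts and the cytosol have ribosomes of their own, with separate sets of nuclear genes that served here for comparison.

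Values are TPM, which divides reads by gene length and expresses each gene as a share of its library. A gene was called higher or lower where limma, a linear model with moderated variances fitted to log2(TPM + 1) over 14731 genes, gave an adjusted p under 0.05. Libraries held 59603478 to 87965038 assigned reads. Genes with any read numbered 15490 to 16231 in the 3 tpt10b libraries at 24 h and 16316 to 16901 in the other 15. The locus taken from general knowledge to be CreTPT10, Cre08.g379350, was at 58.3, 38.3 and 64.2 TPM on average in WT at the successive times, against 7.50, 1.87 and 6.20 in tpt10b. Replicate 2 of WT at 48 h stood apart from its group: 28 of the 72 genes lay more than 0.5 log2 units from the mean of the other 2 replicates there, against 11 and 8 genes for those. By the same measure replicates 1, 2 and 3 had 17, 14 and 9 such genes in tpt10b at 24 h, and 14, 7 and 1 in WT at 0 h. The median shift of the 72 was largest in replicate 1 of WT at 0 h, at 0.28, against -0.23 in replicate 2 of WT at 48 h. The sample descriptions number the tpt10b replicates at 48 h from 4 to 6, and a batch that this could mark cannot be told apart from that group. Because TPM values are shares of a library, all comparisons were repeated after median-of-ratios rescaling, which divides each library by the median ratio of its genes to their geometric means. With it the median log2 difference over the 14731 genes, tpt10b against WT at 0 h, went from 0.41 to -0.03, and that of tpt10b at 24 h against 0 h from -0.53 to -0.06. In cultures measured in bulk, fewer expressing cells and less RNA per cell cannot be told apart.

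All 72 genes were expressed highly enough to be tested, at modest and very unequal levels. The mean over 18 libraries ran from 1.47 TPM for MRPL118 to 246 TPM for MRPS105, with a median of 9.27, against a median of 6.68 over all tested genes. The large subunit median was 9.92 TPM and the small subunit median 7.97. The same median was 4310 TPM for 72 cytosolic ribosomal protein genes and 164 TPM for 32 nuclear genes of the plastid ribosome. The genes of the mitochondrial ribosome thus lay orders of magnitude below those of the cytosolic ribosome on the same per-length scale.

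**Figure D1:**
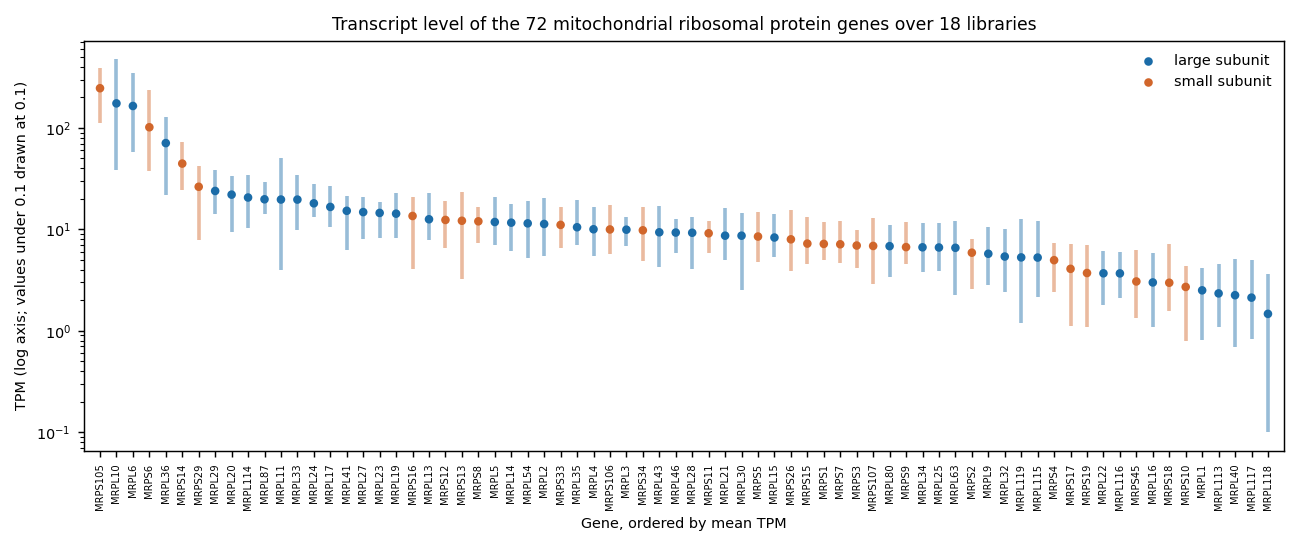
TPM of each of the 72 genes, with the mean over 18 libraries as a point and the lowest to the highest library as a line, on a log axis in descending order of the mean. MRPS105, MRPL10 and MRPL6 stand highest, at means of 246, 175 and 165 TPM, and MRPL40, MRPL117 and MRPL118 lowest, at 2.24, 2.12 and 1.47.

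MRPS105, a small subunit protein named from the algal ribosome, was the most abundant. By its symbol MRPL10 is the counterpart of the bacterial protein that anchors the stalk, the arm that recruits translation factors. MRPL6 is, again by symbol, the counterpart of a protein near the site where those factors bind. Both followed the nuclear plastid ribosomal protein genes closely over the libraries, as given below, and their place in this set rests on the symbol. MRPS105, MRPL10 and MRPL6 held 51.7% of the summed TPM of the 72 in WT at 0 h and 34.9% at 48 h. At the other end, MRPL118 had no assigned read in replicate 1 of tpt10b at 24 h, which allows up to 3 reads or 0.0145 TPM there by counting error alone. Of the 72, 64 had at least 100 reads in every library. Counting error was not set against the spread between replicates. The 10 genes named from the algal ribosome had a median of 5.27 TPM, with MRPS105 as their highest.

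As a share of all transcripts the set was small, and it was larger in tpt10b than in WT before the dark. Its summed level in WT at 0 h was 1622, 1427 and 1437 TPM in the 3 replicates, a mean of 1495 ± 109.8 (SD, n = 3). In WT at 24 h it was 1280, 1329 and 1387 TPM, and at 48 h 1191, 1104 and 1202. In tpt10b it was 2190, 2092 and 2073 TPM at 0 h, above every other library. It was then 1321, 1342 and 1270 TPM in tpt10b at 24 h, and 1199, 1164 and 1211 at 48 h, both within the range of the WT libraries. After rescaling, the group means were 1703, 1240 and 1216 in WT and 1638, 1574 and 1108 in tpt10b, so the summed level of all 72 was no longer higher in tpt10b at 0 h and was higher at 24 h. Without MRPS105, MRPL10 and MRPL6 the other 69 summed to 724, 858 and 760 TPM in WT at the successive times, and to 1197, 782 and 779 TPM in tpt10b. After rescaling, the sum of these 69 at 0 h was 926 in tpt10b (907 to 950 over the libraries). In WT it was 821 (808 to 833), so this sum stayed higher in the mutant, without overlap. A sum is weighted towards abundant genes. At 0 h MRPS6, the most abundant of the 69, averaged 231 TPM for the mutant against 110 for WT before rescaling. MRPS6 was not among the genes called higher at 0 h under both scalings. The sum was not repeated without MRPS6, and alone it does not show an excess spread over the 69. At 24 h the rescaled sums of the 69 were 938 in tpt10b and 798 in WT, and at 48 h 724 and 789. No test was applied to these sums.

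**Figure D2:**
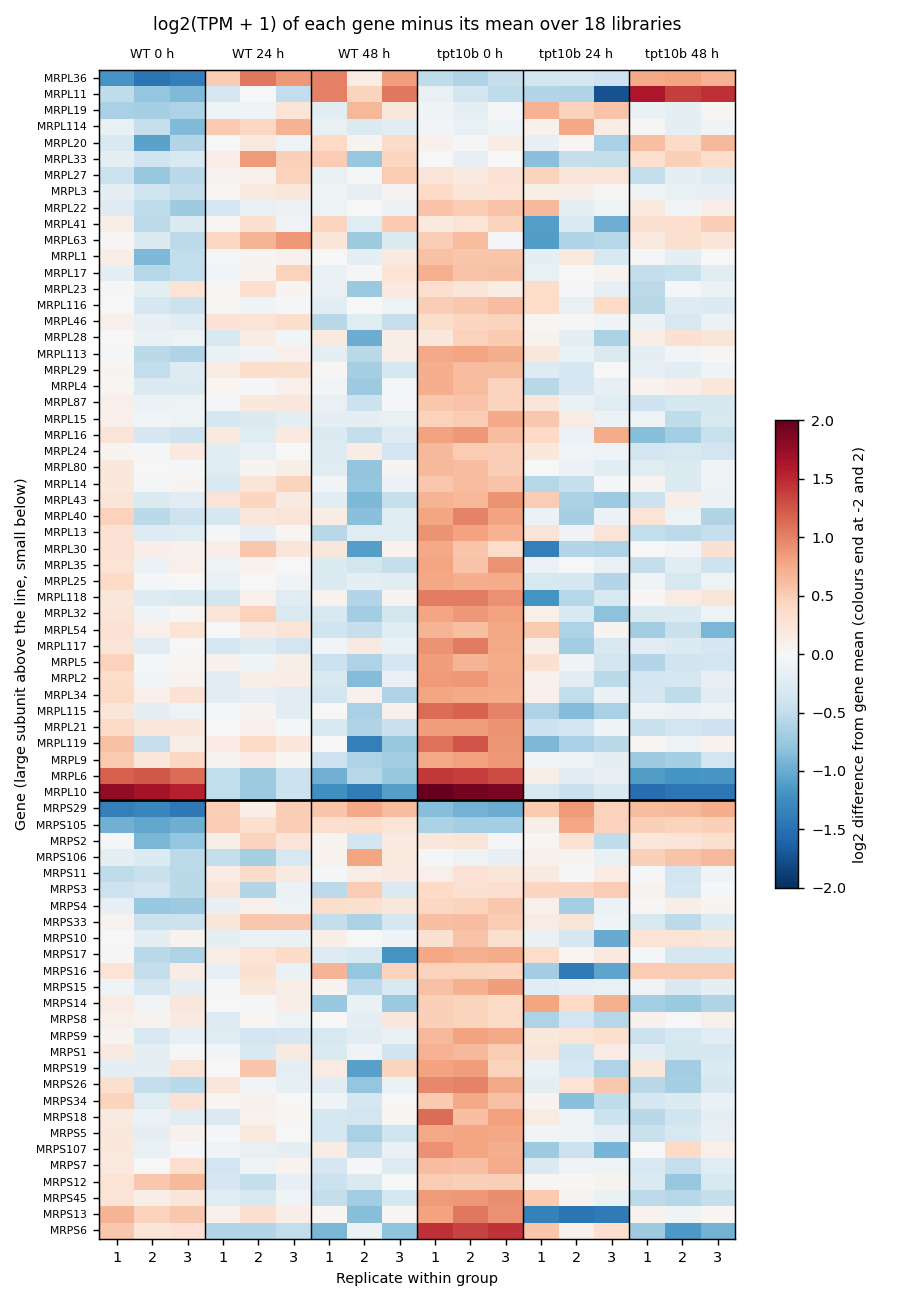
Each row is a gene and each column a library, with log2(TPM + 1) minus the mean of that gene over 18 libraries in colour, in deposited TPM. Large subunit genes lie above the thick line and small subunit genes below it, each ordered by the mean of dark minus light libraries. The 3 tpt10b libraries at 0 h are above the gene mean in most rows, MRPL10 and MRPL6 fall in the dark in both genotypes, and MRPL36, MRPS29 and MRPS105 rise.

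The comparison of dark times with 0 h in WT asks how the genes behave when light is withdrawn from cells with a normal CreTPT10. After 24 h, 18 of the 72 genes were higher and 7 lower, where 40.6% of all tested genes were called higher and 25.8% lower. After 48 h, 14 were higher and 20 lower, where the shares over all genes were 37.7% and 32.4%. Members called higher, and members called lower, were therefore each a smaller share than among all genes at both times in TPM. After rescaling the counts were 12 higher and 22 lower at 24 h (31.5% and 34.5% of all genes), and 12 higher and 29 lower at 48 h (35% and 37.2%). At 24 h 12 genes were higher and 7 lower under both scalings, and at 48 h 12 and 20. The share of all genes called under both scalings was not counted, here or below. It cannot exceed the smaller of the shares given for either scaling. The median log2 difference of the 72 was 0.10 at 24 h and -0.16 at 48 h, against 0.21 and 0.09 for all genes. Without replicate 2 of WT at 48 h, the 48 h counts were 17 higher and 18 lower.

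MRPL10 and MRPL6 fell more in WT in the dark than any other member. MRPL10 stood at 384, 358 and 333 TPM in the WT replicates at 0 h, 79.2, 67.1 and 82.8 at 24 h, then 47.3, 41.9 and 51.5 at 48 h. In tpt10b it stood at 474, 425 and 416 TPM at 0 h, 90.02, 82.4 and 90.3 at 24 h, then 38.4, 40.8 and 40.7 at 48 h. Every library in the dark was far under every library in the light, and those of 48 h were under those of 24 h in both genotypes. The log2 difference from 0 h in WT was -2.22 (SE 0.11, adjusted p = 1.39e-11) at 24 h by limma. At 48 h it reached -2.91 (SE 0.11, adjusted p = 2.52e-13). In tpt10b the same differences were -2.31 and -3.42, with -1.68 and -3.16 after rescaling.

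MRPL6 was at 301, 312 and 285 TPM in WT at 0 h, 92.3, 79.5 and 96.7 at 24 h, then 67.01, 87.6 and 76.7 at 48 h. The tpt10b replicates gave 351, 342 and 325 TPM at 0 h, 143, 113 and 117 at 24 h, then 59.8, 57.4 and 57.8 at 48 h. Light and dark libraries did not overlap in either genotype, and tpt10b was above WT at 24 h and below it at 48 h in every replicate. By limma the fall from 0 h in WT was -1.73 (SE 0.11, adjusted p = 5.83e-10) at 24 h and -1.95 (SE 0.11, adjusted p = 9.90e-11) at 48 h on the log2 scale. In tpt10b it was -1.45 and -2.52. MRPS6, the counterpart of a bacterial protein of the platform of the small subunit, fell as well. It was at 125, 101 and 104.8 TPM in WT at 0 h, 56.7, 56.8 and 60.3 at 24 h, then 44.7, 78.7 and 48.4 at 48 h. Replicate 2 of WT at 48 h was the highest of its group, and still below all WT libraries of 0 h. In tpt10b MRPS6 went from 237, 219 and 236 TPM through 127, 91.4 and 108 to 51.6, 38.00 and 43.9, with no overlap between the times. Its log2 difference at 48 h against 0 h was -0.97 (SE 0.18, adjusted p = 8.74e-05) in WT and -2.36 (SE 0.18, adjusted p = 1.85e-09) in tpt10b, by limma.

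MRPS29 and MRPS105 rose in the dark in both genotypes. MRPS29, whose mammalian counterpart is the GTP-binding protein DAP3, was at 8.19, 8.61 and 7.77 TPM in WT at 0 h, 32.1, 25.05 and 32.3 at 24 h, then 33.8, 38.8 and 35.5 at 48 h. In tpt10b the values were 12.1, 11.4 and 10.9 TPM at 0 h, 33.1, 41.9 and 31.4 at 24 h, then 35.6, 36.2 and 38.2 at 48 h. All 12 dark libraries were above all 6 light libraries. The log2 difference at 48 h was 2.01 (SE 0.12, adjusted p = 1.81e-10) in WT and 1.60 (SE 0.12, adjusted p = 2.92e-09) in tpt10b by limma. MRPS105 was at 116, 111 and 115 TPM in WT at 0 h, 319, 284 and 320.3 at 24 h, then 285, 289 and 273 at 48 h. Its tpt10b values were 146, 142 and 142 TPM at 0 h, 247, 392 and 312 at 24 h, then 317, 309 and 315 at 48 h, again without overlap between light and dark. The log2 difference of MRPS105 at 24 h was 1.42 (SE 0.12, adjusted p = 1.49e-08) in WT and 1.12 (SE 0.12, adjusted p = 2.81e-07) in tpt10b by limma.

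MRPL36, the counterpart of a very small zinc-binding protein of the bacterial large subunit, separated the genotypes in time. It was at 26.5, 21.6 and 22.97 TPM in WT at 0 h, 86.98, 127 and 112 at 24 h, then 124, 67.96 and 109 at 48 h. The tpt10b replicates were at 42.6, 40.02 and 44.1 TPM at 0 h, 47.3, 48.3 and 45.5 at 24 h, then 104, 107 and 98.8 at 48 h. WT libraries of 24 h were all above those of 0 h, replicate 2 was the lowest of WT at 48 h, and tpt10b at 24 h was a few TPM above its light level. By limma the log2 difference at 24 h was 2.14 (SE 0.17, adjusted p = 8.22e-09) in WT. In tpt10b it was 0.15 in TPM (limma adjusted p = 0.434) but 0.77 after rescaling (limma adjusted p = 3.23e-05), so whether MRPL36 was called at 24 h depended on the scaling there. At 48 h it was 2.00 (SE 0.17, adjusted p = 1.46e-08) in WT and 1.27 (SE 0.17, adjusted p = 3.73e-06) in tpt10b.

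MRPL11, the counterpart of the protein that with L10 forms the base of the stalk, rose late. It was at 10.8, 8.79 and 8.04 TPM in WT at 0 h, 12.2, 15.8 and 10.9 at 24 h, then 32.6, 21.9 and 33.95 at 48 h. In tpt10b it was at 14.03, 11.9 and 10.8 TPM at 0 h, 10.2, 9.98 and 3.99 at 24 h, then 50.4, 42.8 and 45.01 at 48 h. The 48 h libraries were above all earlier ones in both genotypes. By limma the log2 difference between 48 h and 0 h was 1.56 (SE 0.25, adjusted p = 2.58e-05) in WT and 1.84 (SE 0.25, adjusted p = 3.69e-06) in tpt10b. Between 48 h and 24 h it was 1.12 (SE 0.25, adjusted p = 0.00190) in WT and 2.47 (SE 0.25, adjusted p = 2.92e-07) in tpt10b.

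**Figure D3:**
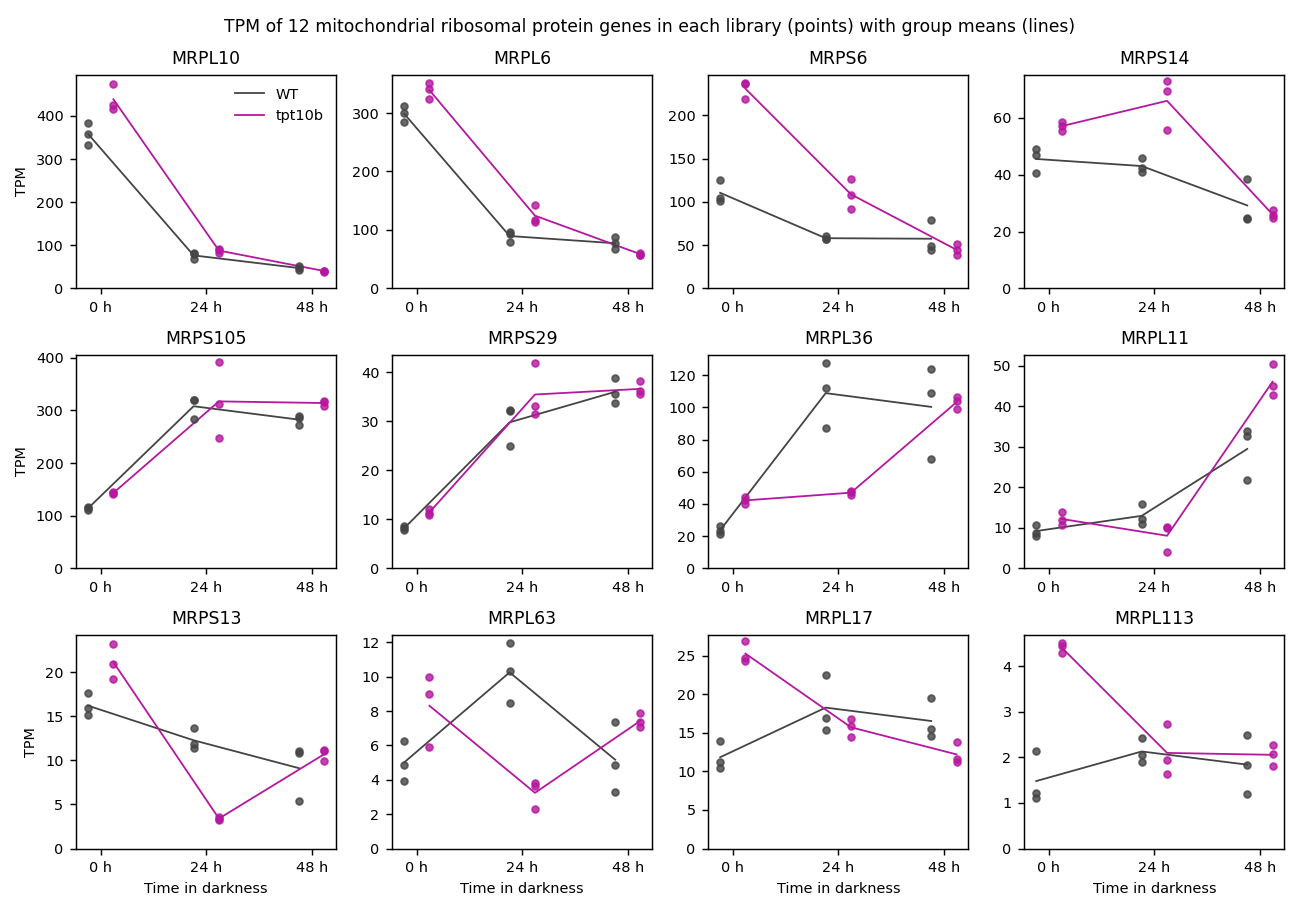
TPM of 12 genes in each library (points) at 0 h, 24 h and 48 h, WT in grey and tpt10b in magenta, with lines through the group means and each vertical axis starting at 0. MRPL10 goes from a mean of 358 TPM to 46.9 in WT and from 439 to 40.0 in tpt10b, while MRPL36 at 24 h has a mean of 109 TPM for WT and 47.0 for tpt10b.

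Between 24 h and 48 h in WT, 2 genes were higher and 17 lower, where 16.8% of all genes were called higher and 24.7% lower. After rescaling these were 5 and 13 (22.5% and 19.7% of all genes), with 2 and 13 called under both. The higher ones under both were MRPL11 and MRPS106, another protein named from the algal ribosome. MRPS106 went from 6.60, 5.68 and 7.44 TPM at 24 h to 10.04, 17.3 and 11.1 at 48 h, without overlap, a log2 difference of 0.84 (SE 0.16, adjusted p = 0.000618) by limma. Replicate 2 was the highest of the 48 h values. Among those that fell, MRPS33, known from mammalian mitochondrial ribosomes, went from 12.7, 15.8 and 15.7 TPM to 7.27, 6.47 and 8.02, again without overlap, a log2 difference of -0.93 (SE 0.15, adjusted p = 0.000111). MRPL119 went from 5.28, 6.30 and 5.54 TPM to 4.58, 1.19 and 2.31 and MRPL63 from 8.46, 10.3 and 11.96 to 7.36, 3.32 and 4.84. Both had their lowest value in replicate 2. Their log2 differences were -0.96 (SE 0.27, adjusted p = 0.00908) and -0.91 (SE 0.23, adjusted p = 0.00495) by limma. The call for MRPL119 was lost when limma was fitted to these groups alone (adjusted p = 0.0564). Without replicate 2 of WT at 48 h the counts were 3 higher and 14 lower.

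In tpt10b most of the set was lower in the dark than in the light in TPM, and after rescaling this held at 48 h but not at 24 h. At 24 h 4 genes were higher and 55 lower, where 18.1% of all tested genes were called higher and 57.1% lower. At 48 h 6 were higher and 53 lower, where the shares over all genes were 30.1% and 44.1%. After rescaling the counts were 12 and 26 at 24 h (34.2% and 38.1% of all genes) and 7 and 47 at 48 h (37% and 36.9%). Of the 55 lower at 24 h, 26 kept the call after rescaling, while at 48 h 47 genes, 30 of the large and 17 of the small subunit, were lower under both. The median log2 difference of the 72 at 48 h was -0.89 in TPM, against -0.20 for all genes, and -0.64 after rescaling, against 0.01. Those 47 are 65.3% of the set, where 36.9% of all genes were called lower after rescaling.

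MRPS13, the counterpart of a protein of the head of the small subunit, had the largest fall at 24 h in tpt10b. It was at 19.3, 23.2 and 20.9 TPM at 0 h, 3.58, 3.23 and 3.39 at 24 h, then 11.2, 9.96 and 11.02 at 48 h. The WT values were 17.6, 15.1 and 15.9 TPM at 0 h, 11.4, 13.6 and 11.8 at 24 h, then 11.05, 5.44 and 10.9 at 48 h. The 3 tpt10b libraries at 24 h were below all other 15, and replicate 2 of WT at 48 h came next. The log2 difference from 0 h in tpt10b was -2.33 (SE 0.18, adjusted p = 5.43e-09) at 24 h by limma, and MRPS13 was higher again at 48 h than at 24 h, by 1.41. MRPL115, which is named from the algal ribosome, went from 11.5, 11.98 and 10.5 TPM to 2.74, 2.15 and 2.66 and then to 4.40, 4.24 and 4.35. No value of a later time reached the 0 h range, and the log2 difference at 24 h was -1.81 (SE 0.17, adjusted p = 5.32e-08) by limma. Only 4 genes were higher in tpt10b at 24 h under both scalings, MRPS29, MRPS105, MRPL114 and MRPL19. MRPL19, the counterpart of a protein at the interface of the subunits, went from 12.8, 11.9 and 13.2 TPM to 22.8, 19.3 and 20.8, without overlap, and back to 12.4, 11.98 and 14.02 at 48 h. Its difference at 24 h was 0.69 (SE 0.17, adjusted p = 0.00133) by limma.

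From 24 h to 48 h in tpt10b, 17 genes were higher and 22 lower, where 46.5% of all genes were called higher and 20.2% lower, and after rescaling 14 and 40 (35.3% and 32.6%). Under both scalings 14 were higher and 22 lower. The 3 largest rises were MRPL11, MRPS16 and MRPS13. MRPS16, the counterpart of a bacterial small subunit protein that binds early in assembly, went from 7.28, 4.06 and 5.47 TPM to 18.03, 18.2 and 18.1, a log2 difference of 1.56 (SE 0.29, adjusted p = 0.000158) by limma. In WT at 48 h MRPS16 was at 20.6, 6.84 and 17.4 TPM, with replicate 2 far below the other replicates. The largest falls were MRPS14, MRPS6 and MRPL10. MRPS14, the counterpart of a protein of the head of the small subunit, went from 72.9, 55.6 and 69.6 TPM to 25.9, 24.7 and 27.4, without overlap, by -1.30 (SE 0.15, adjusted p = 1.01e-06). The fall of MRPS6 was -1.27 and that of MRPL10 -1.11 on the same scale.

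The dark changes of the genotypes share no library and can be set side by side. The 7 genes lower at 24 h in WT were all lower in tpt10b, as 12.7% of the 55 there, and the 4 higher in tpt10b were all higher in WT, as 22.2% of the 18 there. At 48 h all 20 genes lower in WT were lower in tpt10b, as 37.7% of its 53, and all 6 higher in tpt10b were higher in WT, as 42.9% of its 14. These overlaps are of calls in TPM. They are read against the many lower calls in tpt10b, 76.4% of the 72 at 24 h and 73.6% at 48 h, and were not tested. The same overlap was not counted over all genes, nor after rescaling, so it is not shown to be particular to this set. In TPM the 7 genes lower at both dark times in both genotypes were MRPL10, MRPL6, MRPS6, MRPL9, MRPL34, MRPS12 and MRPS45. After rescaling MRPL10, MRPL6 and MRPL9 kept every one of these calls. MRPS6, MRPL34, MRPS12 and MRPS45 were then no longer called lower in tpt10b at 24 h.

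The comparison of tpt10b with WT at each time asks what loss of CreTPT10 does to these transcripts. In the light, 57 of the 72 genes were higher in tpt10b and 0 lower in TPM, where 50.8% of all genes were called higher and 9.19% lower. By limma at an unadjusted p under 0.05 0 were lower, and by limma-voom on read counts 15 were higher and 1 lower. In 67 the lowest tpt10b library was above the highest WT library, as it was for 63.6% of all genes. The median log2 difference was 0.66, against 0.41 over all genes. After rescaling 14 were higher and 1 lower, where 13.1% and 21.2% of all genes were, and the medians were 0.15 and -0.03. So 14 of the 57 were called under both scalings, 7 of each subunit. They were MRPL1, MRPL17, MRPL22, MRPL29, MRPL113, MRPL115, MRPL118, MRPS4, MRPS9, MRPS15, MRPS17, MRPS18, MRPS26 and MRPS33. The 1 gene lower after rescaling was MRPS12, the counterpart of a protein of the decoding centre, with a log2 difference of -0.53 (limma adjusted p = 0.0230) against 0.0014 in TPM.

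MRPL113, which is named from the algal ribosome, was at 2.13, 1.21 and 1.10 TPM in the WT replicates at 0 h and 4.43, 4.51 and 4.28 in tpt10b. MRPS26, known from mammalian mitochondrial ribosomes, was at 9.46, 5.01 and 4.76 TPM in WT and 15.2, 15.5 and 13.1 in tpt10b. MRPS17, the counterpart of a bacterial protein that binds ribosomal RNA early in assembly, was at 3.87, 2.31 and 2.12 and 7.15, 6.86 and 7.04 TPM. For each of the 3 genes every tpt10b replicate was above every WT replicate, and WT replicate 1 was the highest WT value. By limma the log2 differences were 1.15 (SE 0.18, adjusted p = 7.46e-05) for MRPL113, 1.13 (SE 0.23, adjusted p = 0.000653) for MRPS26 and 1.12 (SE 0.21, adjusted p = 0.000379) for MRPS17. After rescaling they were 0.75, 0.63 and 0.66. The least abundant genes behaved alike: MRPL118 was at 1.66, 0.919 and 0.867 TPM in WT and 3.64, 3.64 and 3.29 in tpt10b, MRPL117 at 2.53, 1.52 and 1.96 and 4.51, 5.04 and 4.01, and MRPL40 at 3.18, 1.09 and 1.29 and 4.25, 5.06 and 4.28. In TPM these 3 were higher in tpt10b by 1.09, 0.89 and 1.02 on the log2 scale. After rescaling MRPL118 kept its call and the other two did not (limma adjusted p = 0.0534 for MRPL117 and 0.0785 for MRPL40).

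**Figure D4:**
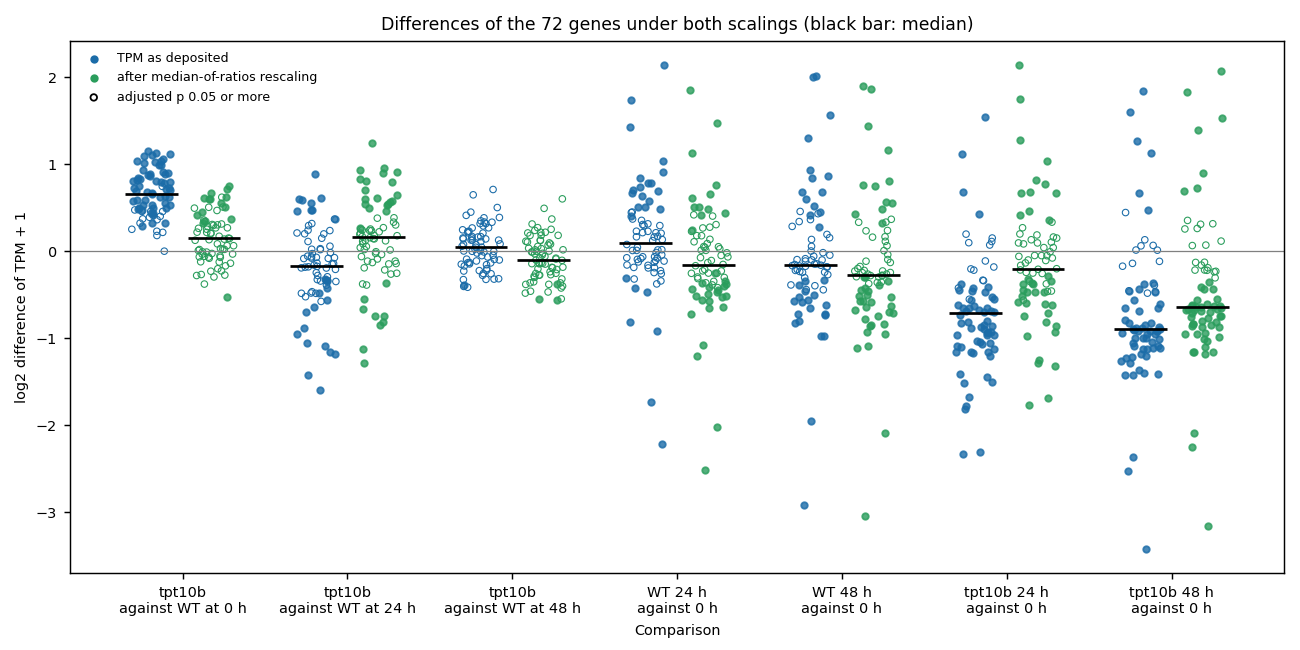
log2 differences of the 72 genes in 7 comparisons, in deposited TPM (blue) and after median-of-ratios rescaling (green), filled where the limma adjusted p was under 0.05, with a black bar at the median. The tpt10b excess at 0 h has a median of 0.66 in TPM and 0.15 after rescaling, the median at 24 h changes sign from -0.17 to 0.16, and that of tpt10b at 48 h against 0 h stays negative at -0.89 and -0.64.

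At 24 h of darkness the genes were divided. In TPM 9 were higher and 16 lower in tpt10b than in WT, where 5.76% of all genes were called higher and 34.8% lower, and after rescaling 20 were higher and 9 lower, where 20.6% and 20.5% were. The median log2 difference was -0.17 in TPM and 0.16 after rescaling, against -0.23 and 0.04 over all genes. Under both scalings 9 were higher and 9 lower. The higher ones were MRPL6, MRPL15, MRPL19, MRPS3, MRPS6, MRPS9, MRPS14, MRPS45 and MRPS106, and the lower ones MRPL30, MRPL33, MRPL36, MRPL41, MRPL63, MRPL115, MRPL119, MRPS13 and MRPS16. The TPM count of higher genes fell to 5 without replicate 1 of WT at 24 h, to 4 without replicate 2 of that group and to 4 without replicate 1 of tpt10b at 24 h. The count of lower genes fell to 10 without replicate 2 of WT at 24 h.

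MRPS13 had the largest difference, with 3.58, 3.23 and 3.39 TPM in tpt10b against 11.4, 13.6 and 11.8 in WT, -1.59 (SE 0.18, adjusted p = 2.20e-05) on the log2 scale by limma. MRPL63, which is known from mammalian mitochondrial ribosomes, was at 2.27, 3.66 and 3.80 TPM against 8.46, 10.3 and 11.96, a difference of -1.42 (SE 0.23, adjusted p = 0.000259). MRPL36 was lower by -1.18 (SE 0.17, adjusted p = 0.000119). Groups did not overlap for any of the 3, and the calls held after rescaling, with -1.29, -1.12 and -0.82. In the other direction MRPS6 was at 127, 91.4 and 108 TPM against 56.7, 56.8 and 60.3, 0.88 (SE 0.18, adjusted p = 0.00102), and MRPS14 at 72.9, 55.6 and 69.6 against 42.2, 40.96 and 46.02, 0.60 (SE 0.15, adjusted p = 0.00471). Groups were again apart. MRPS3, whose bacterial counterpart lines the entry of the message channel, was at 9.34, 9.33 and 9.86 TPM against 8.06, 4.11 and 6.04, with the WT replicates widely spread. Its difference was 0.61 (SE 0.22, adjusted p = 0.0365) by limma, and the call was lost without WT replicate 2 (adjusted p = 0.201) or 3 (0.0733) of that time, and without tpt10b replicate 1 (0.0661), 2 (0.0587) or 3 (0.0873).

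Coding length moved with the differences between genotypes at 24 h in TPM, and this was not repeated after rescaling. Of the 18 members under 500 bp, 8 were lower and 2 higher in tpt10b, and of the 54 longer ones 8 were lower and 7 higher. Over all tested genes of any length 34.8% were called lower and 5.76% higher, and these shares were not counted by length. The median log2 difference was -0.48 for the shorter and -0.08 for the longer members, while over all tested genes it was -0.26 for the 1411 under 500 bp and -0.23 for the rest. Spearman's rho between coding length and the difference was 0.34 over the 72 members and -0.12 over 14731 genes, as a description of values that come from the same libraries. This was not particular to the genotypes at 24 h: for WT at 48 h against 24 h rho was 0.33 over the members and -0.01 over all genes. In the remaining comparisons it ran from -0.23 to 0.25 over the members. From 24 h to 48 h in tpt10b the median was 0.36 for the shorter and -0.22 for the longer members. The shorter members were also low in replicate 2 of WT at 48 h, with a median of -0.64 against the other replicates, where the longer ones were at -0.13. Over all tested genes the medians there were -0.31 for those under 500 bp and -0.25 for the rest. The part of length in these differences was not tested, and MRPS6 and MRPS14, at 369 and 339 bp, went the other way from most short members.

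**Figure D5:**
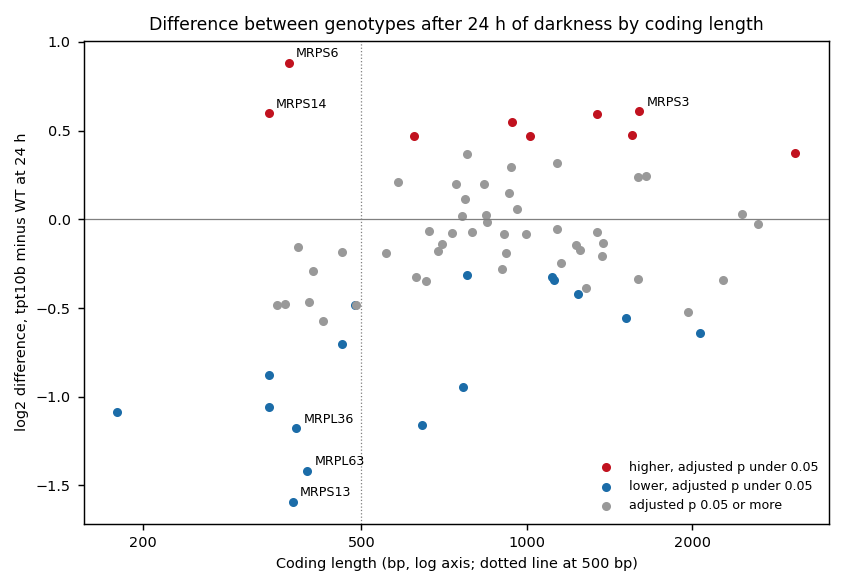
log2 difference between tpt10b and WT at 24 h against coding length in bp on a log axis for the 72 genes, coloured by the limma call in deposited TPM, with a dotted line at 500 bp. MRPS13, MRPL63 and MRPL36, the 3 lowest, have coding lengths of 375, 399 and 381 bp, and MRPS6 and MRPS14 are short genes that are higher.

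At 48 h few of the set were called different between genotypes. In TPM 0 genes were higher and 1 lower, where 5.2% of all genes were called higher and 1.39% lower, and after rescaling 0 and 3, where 3.05% and 2.46% were. At an unadjusted p under 0.05 limma gave 4 higher and 3 lower, and limma-voom gave 0 and 3 adjusted calls. No gene was called under both. The median log2 difference was 0.05 in TPM and -0.09 after rescaling. The 1 call in TPM was MRPL6, at 59.8, 57.4 and 57.8 TPM in tpt10b against 67.01, 87.6 and 76.7 in WT. Its groups did not overlap and its difference was -0.39 (SE 0.11, adjusted p = 0.0498) by limma. This call was lost after rescaling (adjusted p = 0.0544), and without replicate 2 (0.192) or 3 (0.0838) of WT or any of replicates 1, 2 and 3 of tpt10b (0.122, 0.141 and 0.156). Without replicate 1 of WT at 48 h the counts were 2 higher and 4 lower. The sizes of the differences at 48 h, from -0.41 to 0.71, were not all small, and a gene that missed the threshold is not shown to be equal.

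The interaction of genotype and time asks whether the change from 0 h differed between tpt10b and WT. At 24 h it was negative and called for 53 of the 72 genes and positive for 0, where 57.9% of all genes were called lower and 6.25% higher. Limma gave 0 positive at an unadjusted p under 0.05 as well, while limma-voom called 12 positive and 9 negative. After rescaling 9 were negative and 10 positive, where the shares over all genes were 19.2% and 25.4%, so that 9 genes had a negative interaction under both. They were MRPL29, MRPL36, MRPL63, MRPL113, MRPL115, MRPL118, MRPL119, MRPS13 and MRPS107. At 48 h 36 were negative and 0 positive, where 26.4% and 9.02% of all genes were, and after rescaling 16 and 0, where 8.75% and 16.9% were. All 16 were among the 36. At an unadjusted p under 0.05 limma gave 0 positive, and limma-voom called 0 positive and 13 negative. Without replicate 2 of WT at 48 h the TPM count was 43 negative and 0 positive. Among the 16, MRPL17, the counterpart of a protein at the exit of the peptide tunnel, was at 13.9, 10.4 and 11.2 TPM at 0 h and 14.5, 15.5 and 19.5 at 48 h in WT. In tpt10b it went the other way, from 26.9, 24.3 and 24.6 TPM to 11.3, 11.6 and 13.8, and neither pair of groups overlapped. Its interaction was -1.45 (SE 0.21, adjusted p = 0.000260) by limma, and -1.07 after rescaling. MRPS26, the other gene with a large interaction at 48 h beside MRPS6, was no longer called with limma-voom on read counts (adjusted p = 0.0586).

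Across the 18 libraries the 72 genes varied together only loosely. The median Pearson correlation over 2556 pairs was 0.47 in TPM and 0.23 after rescaling. For the nuclear plastid ribosomal protein genes the same median was 0.94 and 0.93, and for the cytosolic ones 0.37 and 0.76, so the value of the last depended on the scaling. These correlations share the libraries, their group structure and the fixed total of TPM, and are given as a description. MRPL10 and MRPL6 were the members most like the mean of the 32 plastid ribosomal protein genes, at 0.99 and 0.97, ahead of MRPL9 at 0.92, where the median member was at 0.55. They kept ranks 1 and 2 after rescaling. All 32 plastid genes were lower at 24 h and 48 h than at 0 h in WT, with median log2 differences of -1.95 and -2.51, while MRPL10 was at -2.22 and -2.91. The mean levels of MRPL10 and MRPL6, 175 and 165 TPM, were near the plastid median of 164 TPM. The deposited symbols include a PRPS6, at a mean of 151 TPM, but no PRPL10 or PRPL6. The symbols of MRPL10, MRPL6 and MRPS6 are taken as deposited, and in which organelle their products act was not measured here. Least like the mean of the other members in TPM were MRPS29 at -0.53 and MRPS105 at -0.49. After rescaling this order changed, with MRPL11 at -0.85 and MRPL36 at -0.82 least alike and MRPS29 and MRPS105 at -0.69 and -0.66.

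Other parts of the mitochondrial supply line were counted the same way. Of 24 import genes (TIM, TOM, SAM and related symbols), 14 (58.3%) were higher and 0 lower in tpt10b at 0 h in TPM, where 50.8% and 9.19% of all genes were, and 4 and 4 after rescaling, where 13.1% and 21.2% were. At 24 h 0 were higher and 12 lower (50%), where 5.76% and 34.8% of all genes were, and 6 and 8 after rescaling, where 20.6% and 20.5% were. Limma at an unadjusted p under 0.05 gave 0 lower at 0 h and 0 higher at 24 h, where limma-voom called 4 lower and 6 higher. In the dark in tpt10b 2 were higher and 17 lower at 24 h, and 3 and 14 at 48 h, with 7 and 12 and again 3 and 14 after rescaling. The shares called lower over all genes were 57.1% and 44.1% in TPM and 38.1% and 36.9% after rescaling. Those called higher were 18.1% and 30.1% in TPM and 34.2% and 37% after rescaling. TOM40, the pore of the outer membrane, differed at 48 h from 0 h by -0.91 (SE 0.17, limma adjusted p = 0.000124) in WT and by -1.84 (SE 0.17, limma adjusted p = 2.83e-08) in tpt10b. TIM17, of the inner membrane channel, was higher at 24 h against 0 h, by 1.99 in WT and 1.15 in tpt10b. Of 11 tested genes listed for mitochondrial gene expression, MOC1 and 10 numbered PPR symbols whose location was not checked, 7 were higher and 1 lower in tpt10b at 0 h, and 2 and 2 after rescaling, beside the same shares over all genes at 0 h as for import.

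The messages that these ribosomes translate were scarce in the libraries and differed between genotypes at more than 1 time. The 8 listed mitochondria-encoded genes had a median of 2.39 TPM, and 7 could be tested. All 7 were higher in tpt10b at 0 h, and 6 of them after rescaling, where 50.8% and 13.1% of all genes were. At 24 h 0 of 7 were called by limma, 0 at an unadjusted p under 0.05 and 0 by limma-voom. At 48 h 6 were higher in TPM and 4 after rescaling, where 5.2% and 3.05% of all genes were. In tpt10b all 7 were lower at 24 h than at 0 h and all 7 higher at 48 h than at 24 h, and after rescaling 6 and 7. Over all genes 57.1% were lower and 46.5% higher in these comparisons in TPM, and 38.1% and 35.3% after rescaling. The log2 difference between tpt10b and WT for cob, which encodes cytochrome b, was 1.25 at 0 h (SE 0.23, limma adjusted p = 0.000253), -0.27 at 24 h (adjusted p = 0.352) and 1.35 at 48 h (adjusted p = 0.00255). How far such transcripts were captured depends on whether poly(A) RNA was selected, which is not given in the sources used here.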

How the data were processed

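The authors deposited a table of TPM values, with gene length and, where known, a symbol for each of 17693 genes in 18 libraries. Per the labels' protocols, DNase-treated total RNA was fragmented and reverse transcribed from random hexamers. HISAT2 2.0.5 and StringTie 1.3.3b are listed in the submitters' processing notes with no role. The counting tool, its settings and strandedness are not given in the sources used here, so reads of overlapping or antisense genes cannot be separated. Multiplying TPM by length and by a constant for each library gave whole reads, to within 0.01, in 100% of cases, and these recovered reads entered an alternative test. Since 94.4% of lengths (71 of the 72 members) are multiples of 3, length here means coding length. Intervals and floors cover counting error only, since the labels describe no molecular identifiers.

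Columns were matched to samples by the library names in the descriptions, and groups came from the titles, with 0 columns left without a sample. Genes that reached 1 TPM in 3 or more libraries, 14731, were fitted with limma 3.58.1 (R 4.3.3) on log2(TPM + 1), with 1 mean per group, a variance trend and Benjamini-Hochberg adjustment within each of 11 contrasts over all those genes, at 0.05. The fit was tested on simulated data in which a small share of genes changed in 1 group, equally often up and down. That setting holds no shift of most genes, so it does not bear on the choice of scaling. Log2 differences understate changes of low genes because of the pseudocount. The members and lists were chosen with earlier results of these data known. In each contrast up to 3 members with the largest called difference each way are named, with the 3 highest and 3 lowest levels. Genes named beyond that, as called under both scalings, for likeness to other genes or from other lists, and the coding length split, the sums without the 3 leading genes, the count called under both scalings and the comparison with plastid genes, were chosen after values were seen. Of the symbols beginning with RPP, 4 of ribonuclease P were taken out of the cytosolic list once the symbols had been read. Same-numbered replicates were not treated as pairs. Alternatives were pseudocounts of 0.1 and 5, no filter, a mean of at least 5 TPM, median-of-ratios rescaling, limma-voom on the read counts, a replicate block, the compared groups alone, and each library left out. Data handling used Python 3.11.15, numpy 2.4.6 and pandas 2.3.3, and plots matplotlib 3.10.9.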

Additional observations from a re-analysis of the deposited data

Results flagged for a closer look

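These results stand out because the change from light to dark differed between tpt10b and WT by a test of the difference itself, limma's interaction term. At 24 h 53 of the 72 genes had a negative interaction with an adjusted p under 0.05, where 57.9% of all genes did. After rescaling 9 were negative and 10 positive, where 19.2% and 25.4% of all genes were, so the count alone does not set these genes apart. The largest was MRPL63 with -2.04 (SE 0.33, adjusted p = 0.000112), which rose in WT and fell in tpt10b. MRPL36 followed with -1.99 (SE 0.24, adjusted p = 2.07e-05), having risen in WT at 24 h, while in tpt10b the log2 difference was 0.15 in TPM and 0.77 after rescaling. MRPS13 had -1.95 (SE 0.26, adjusted p = 2.96e-05), with a fall in tpt10b. After rescaling these were -1.26, -1.09 and -1.12, each still called.

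At 48 h 36 genes had a negative interaction, where 26.4% of all genes did, and after rescaling 16, where 8.75% did. The largest were MRPL17 with -1.45 (SE 0.21, adjusted p = 0.000260), MRPS6 with -1.38 (SE 0.25, adjusted p = 0.000907) and MRPS26 with -1.27 (SE 0.33, adjusted p = 0.00731), by limma, and after rescaling -1.07, -0.99 and -0.90. All 3 were higher in tpt10b than in WT at 0 h in TPM, and none of the 3 was called different at 48 h. A shared 0 h level enters every interaction, and the tpt10b group at 48 h carries replicate numbers 4 to 6 in its descriptions, so a batch cannot be told apart from it there.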

How the results depend on the processing

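With the counts of higher and lower genes in that order, median-of-ratios rescaling gave 14 and 1 for tpt10b against WT at 0 h, 20 and 9 at 24 h and 3 lower at 48 h. It gave 22 lower for WT at 24 h against 0 h, 5 higher for WT at 48 h against 24 h, 12 and 26 for tpt10b at 24 h against 0 h, and 40 lower for tpt10b at 48 h against 24 h. The interactions had 10 and 9 at 24 h and 16 lower at 48 h. The summed level became 1703 and 1240 in WT at 0 h and 24 h, and 1638, 1574 and 1108 in tpt10b at 0 h, 24 h and 48 h. Limma-voom on the read counts gave 15 and 1, 20 and 10, and 3 lower for the genotypes at the 3 times, 20 lower for WT at 24 h, 4 higher for WT at 48 h against 24 h, 12 and 27 for tpt10b at 24 h, 40 lower for tpt10b at 48 h against 24 h, 12 and 9 for the interaction at 24 h and 13 lower for that at 48 h. For tpt10b against WT at 48 h, a pseudocount of 5 gave 1 higher, and a pseudocount of 0.1, the replicate block and the compared groups alone each gave 0 lower. The other counts stayed within 1.5 times under the settings run other than leaving out libraries.

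With each library left out in turn, the genotype comparison ranged over 47 to 57 higher and 0 to 0 lower at 0 h, 4 to 9 and 10 to 17 at 24 h, and 0 to 2 and 0 to 4 at 48 h. WT ranged over 15 to 22 and 5 to 9 at 24 h against 0 h, 10 to 17 and 15 to 21 at 48 h against 0 h, and 2 to 3 and 13 to 20 at 48 h against 24 h. For tpt10b the ranges were 3 to 4 and 51 to 55, 5 to 6 and 51 to 52, and 15 to 18 and 17 to 21. The interactions ranged over 46 to 54 lower at 24 h and 28 to 43 at 48 h, with 0 higher. Among 51 named results, 10 of 342 values with a library left out and 8 of 406 other values lost the call, and 0 changed sign. Named genes with a mean under 5 TPM have no value under that filter. Of the 8, the replicate block took 2, MRPS3 at 24 h (limma adjusted p = 0.0527) and MRPL6 at 48 h (0.0772). Replicate numbers, taken from the titles, did not visibly pair the samples: 6 of 45 same-number correlations of deviations from group means exceeded 0.1. For 0 of 18 libraries was the mean correlation with the other groups highest at its own number. The block changed no other call among the named results. The causes of these shifts were not tested. At equal length, genes near 1 TPM rest on fewer reads than more abundant ones. MRPL118 had 0, 91 and 192 reads in tpt10b replicates 1, 2 and 3 at 24 h. These libraries held 82992851, 65077330 and 87965038 assigned reads, and the cause of the 0 was not tested.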
